A study of Mus musculus with 2 samples.

Results

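The genes described here belong to families with roles in the cilium or in the control of cilium genes. They were picked by symbol, so not every member need have such a role. Members were protein-coding genes of the mm10 annotation whose symbol is Ift, Bbs, Tctn, Dnah, Rsph or Rfx followed by a number, together with Foxj1. The rule found 56 of 21911 protein-coding genes. They were 14 Ift, 8 Bbs, 2 Tctn, 15 Dnah, 8 Rsph and 8 Rfx genes and Foxj1. Tctn2 is not annotated as protein-coding in this release and was not a member.

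The assay was DNase-seq: nuclei are treated with DNase I, an enzyme that cuts open chromatin, and sequencing locates its cuts. The tissue was midbrain of healthy mouse embryos of strain B6NCrl at day 14.5, males and females pooled. The 2 biological replicates formed 1 group, with no treatment, mutant or second tissue. The labels give them different biosamples but the same donor entry, and part of their spread may be technical.

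Almost every cell of the embryonic neural tube carries a primary cilium, an immotile organelle that receives Hedgehog signals. Intraflagellar transport (IFT) proteins carry cargo along it, the BBSome moves membrane proteins through it, and tectonic proteins belong to the transition zone at its base. Motile cilia, found in the brain on ependymal and choroid plexus cells, also need axonemal dynein heavy chains, the motor subunits encoded by Dnah genes, and radial spokes, encoded by Rsph genes. RFX transcription factors bind the X-box, a palindrome of paired RFX sites, in promoters of cilium genes. Foxj1 is a forkhead factor that drives the motile cilium programme.

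In bulk tissue a weaker peak in every cell cannot be told apart from an open site in fewer cells. The 5 choroid plexus marker genes (Ttr, Folr1, Kl, Clic6 and Aqp1) and the 5 multiciliated or ependymal ones (Foxj1, Mcidas, Gmnc, Ccno and Tekt1) all had promoter peaks in overlapping positions in both replicates, as did 68.9% of all protein-coding genes. Values of the choroid plexus markers ran from 13 to 46 in replicate 1 and from 51 to 109 in replicate 2. Those of the multiciliated or ependymal markers ran from 14 to 105 and from 62 to 142. How far such cells contribute to the peaks below was not tested. All 6 midbrain, 3 neuronal and 3 progenitor markers had such peaks too. Values of these markers ran from 28 to 123 in replicate 1 and from 103 to 147 in replicate 2. Pax2, with 28 and 108, and Pax7, with 45 and 103, lay within the range of the choroid plexus markers.

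Replicate 1 held 710176 peaks and replicate 2 held 267958, and 171429 peaks of replicate 2 overlapped a peak of replicate 1. Each peak carries an authors' value of at most 150 whose scale is not stated, and the median peak had 6 in replicate 1 against 51 in replicate 2. No common depth was applied to the values, which are therefore compared between genes of the same replicate. Read depth is unknown. Values are given below for replicate 1 and then replicate 2. A promoter peak is one that overlaps a window reaching 1000 bp each way from a start of any transcript of the gene. A gene has a shared promoter peak where promoter peaks of both replicates overlap by at least 1 bp.

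Matches to the X-box were found near the 5′ end of 6 members, all of them Ift, Bbs or Tctn genes, and in an intronic promoter peak of Dnah1. They are shown because the X-box is the sequence that RFX factors are known to read. The motif searched was GTTNCC, then NN, then GGNAAC, on both strands, with at most 1 mismatch over its 10 fixed letters. Capitals mark the match and small letters its flanks, in the GRCm38.p6 (mm10) genome sequence, 5′ to 3′ on the gene's strand.
Ift22, chr5:136908079-136908108, plus strand: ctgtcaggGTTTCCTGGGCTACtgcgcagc
Ift22, chr5:136908109-136908138, plus strand: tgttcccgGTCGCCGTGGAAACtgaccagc
Ift57, chr16:49699199-49699228, plus strand: cgggtctgGTTGCCGTGGTGACcggctgcc
Bbs1, chr19:4906605-4906634, minus strand: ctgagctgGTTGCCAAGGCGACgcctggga
Bbs4, chr9:59353464-59353493, minus strand: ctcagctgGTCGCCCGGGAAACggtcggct
Bbs7, chr3:36613489-36613518, minus strand: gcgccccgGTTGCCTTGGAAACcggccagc
Tctn1, chr5:122264403-122264432, minus strand: ctgtgactGTTGCCCGGGCAACagacgggc
Dnah1, chr14:31268697-31268726, minus strand: ctaccctcGTTTCCATGGCTACctcctctg
Dnah1, chr14:31268646-31268675, minus strand: ctaccctcGTTTCCATGGATACctcctctg

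The matches of Bbs7 and Tctn1 were exact. Counted from 1 at the motif's 5′ end, with the motif's letter first, the others carried A12T and T3C in Ift22, A12G in Ift57 and in Bbs1, T3C in Bbs4 and A12T in both sites of Dnah1. The centres of the sites lay 56 and 26 bp upstream of the 5′ end of Ift22, 20 bp upstream in Ift57 and 26 bp upstream in Bbs7. They lay 8 bp inside the gene in Bbs1, 30 bp in Bbs4 and 42 bp in Tctn1. Both Dnah1 sites lay over 55 kb into that gene, in an intron near an internal transcript start. The stretches printed for them, flanks included, differ at 1 base, so the sites may not be independent matches.

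Of the 56 members, 6 (10.7%) had an X-box match in the 300 bp promoter, taken as the 250 bases before and 50 after the 5′ end, against 2.51% of all protein-coding genes. They were 2 of 14 Ift genes, 3 of 8 Bbs genes and 1 of 2 Tctn genes. No Dnah, Rsph or Rfx gene had a match there, nor did Foxj1. The same search covered cilium genes with other names, RFX partners and regulators of multiciliated cells, listed by role below. The count was 0 of 7 for other genes of the BBSome and its partners. It was 3 of 18 for IFT genes and motors and 6 of 13 for transition zone genes. It was 4 of 18 for dynein light and intermediate chains, docking and assembly, and 3 of 11 for central apparatus and other axonemal parts. RFX partners and regulators of multiciliated cells had 1 of 7. In the strongest shared promoter peak the count was 5 of 53 members (Ift22, Ift57, Bbs1, Bbs4 and Dnah1), against 2.61% of all genes with such a peak. The Bbs7 site lay outside its replicate 2 peak but inside the overlapping replicate 1 peak, chr3:36613376-36613525, which had a value of 120. The Tctn1 site, chr5:122264411-122264424, crossed the edge of its peak, chr5:122264416-122264565, in both replicates and was not counted. The count moved with the stringency of the search. Exact matches were found in 0 Ift, 1 Bbs and 1 Tctn gene, against 0.411% of all genes. With up to 2 mismatches, a match was found in 4 of 14 Ift, 3 of 8 Bbs, 2 of 2 Tctn, 2 of 15 Dnah, 2 of 8 Rsph and 3 of 8 Rfx genes, against 14.2% of all genes.

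The single RFX motif GTTGCC is contained in an X-box whose left arm reads that way, so the searches overlap. It stood in the 300 bp promoter of 18 of 56 members (32.1%), against 12% of all protein-coding genes. The 7 of 14 Ift genes with it were Ift27, Ift57, Ift80, Ift81, Ift88, Ift140 and Ift172, and the 2 of 15 Dnah genes were Dnah7a and Dnah10. It was also in 3 of 8 Bbs genes, both Tctn genes, 3 of 8 Rfx genes (Rfx1, Rfx2 and Rfx3) and Foxj1, and in 0 of 8 Rsph genes. Inside shared promoter peaks it was found in 13 of 53 members (24.5%), against 7.97% of all genes with such a peak. The forkhead motif TGTTTAC was in the promoters of Dnah7b and Rfx8, 2 of 56 members (3.57%) against 3.05%, and in 0 of 53 shared promoter peaks of members, against 0.987%. A match describes letters and does not show that a factor was bound.

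A shared promoter peak was found at 53 of the 56 members, 94.6% with an exact binomial interval of 85.1 to 98.9% that covers counting error alone, against 68.9% of all protein-coding genes. All 14 Ift genes had one (interval 76.8 to 100%), and 12 of 15 Dnah genes did (80%, interval 51.9 to 95.7%). These intervals overlap, and with 1 group of 2 replicates no test between the classes was made. All 8 Bbs, 2 Tctn, 8 Rsph and 8 Rfx genes and Foxj1 had shared promoter peaks. Across the 56 members, the strongest promoter peak ranked alike in both replicates, with a Spearman correlation of 0.948 that describes these genes in libraries from a single tissue.

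The classes were further apart in peak value than in the count of peaks. The strongest promoter peak of an Ift gene had a median value of 117.5 and 144, against 33 and 83 for a Dnah gene, with a gene that lacked a peak counted as 0. Over all protein-coding genes the medians were 60 and 122. The Ift values ran from 79 to 130 in replicate 1 and from 124 to 148 in replicate 2, and the Dnah values from 0 to 101 and from 0 to 139. The ranges overlapped, since Dnah6, Dnah9 and Dnah7a lay within the Ift range in both replicates. Ranked within the genes that had a promoter peak, with 0 for a gene without, the median Ift gene stood at percentile 84.8 and 77.9 and the median Dnah gene at 21.6 and 13.6. Among genes with a peak alone, the Dnah medians were 43.5 and 108.5, against 86 and 136 for all genes.

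**Figure D1:**
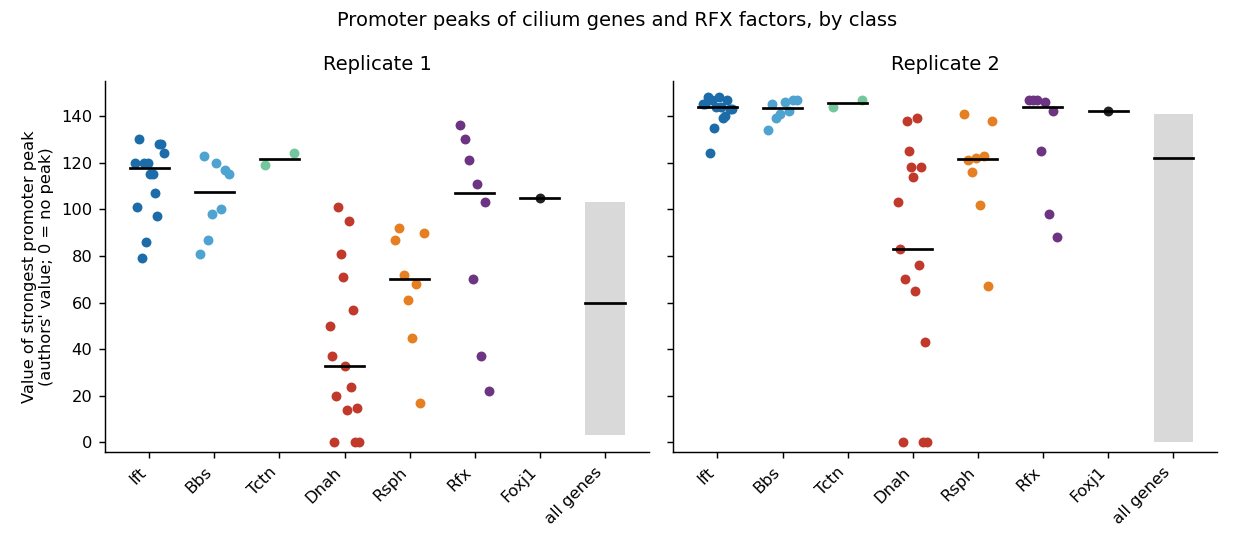
Authors' value of the strongest promoter peak (vertical axis, no stated unit, 0 where no peak was found) for each gene, by class, in replicate 1 (left) and replicate 2 (right). Points are genes, black lines are medians and the grey bar spans the middle quartiles of all protein-coding genes; the Ift medians of 117.5 and 144 stand above the Dnah medians of 33 and 83, with overlapping ranges.

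Among the IFT genes, Ift27, a small GTPase of the IFT-B complex, had the highest rank, with values of 130 and 148 for the peak at chr15:78174196-78174345. Ift122 and Ift140, both of the IFT-A complex that carries cargo back towards the cell body, had 128 and 147 and 128 and 143. Ift46, of IFT-B, had 120 and 147, but that peak lay at an internal start 5002 bp from the 5′ end, where the values were 99 and 138. The lowest ranks belonged to Ift43 of IFT-A, with 79 and 124, Ift52 of IFT-B, with 86 and 135, and Ift88 of IFT-B, the gene disrupted in the Oak Ridge polycystic kidney mouse, with 97 and 140. Ift43 was above the median of all genes, 60 and 122, in both replicates. The strongest shared peak was centred within 200 bp of the 5′ end in 12 of 14 Ift genes, against 64.5% of all genes with such a peak.

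The start of another protein-coding gene lay within 1000 bp of the shared promoter peak's centre in 4 of 14 Ift genes (28.6%). It did so in 0 of 12 Dnah genes and in 17.2% of all genes with such a peak. Whether the genes of a pair share a promoter was not tested. The pairs were Ift20 with Tnfaip1 at 20 bp from the peak centre, Ift80 with Smc4 at 60 bp, Ift122 with Mbd4 at 100 bp and Ift140 with Cramp1l at 162 bp. The peak of Bbs12 was centred 44 bp from a start of Cetn4, and that of Tctn3 66 bp from a start of Entpd1. Where peaks centred nearer to another gene's start were left out, Ift20, Bbs12 and Tctn3 had no promoter peak. Then 13 Ift and 12 Dnah genes had a shared peak, against 65.9% of all genes. With such peaks left out at the 5′ end alone, Ift46 also lost its shared peak, with 0 and 26 left.

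The Bbs genes include subunits of the BBSome and, in Bbs10 and Bbs12, chaperonin-like factors that help assemble it. The 8 Bbs genes had medians of 107.5 and 143.5, with ranges of 81 to 123 and 134 to 147. Bbs1 was lowest with 81 and 134, Bbs2 was highest in replicate 1 with 123 and 145, and Bbs10 and Bbs12 had 117 and 147 and 115 and 147. Tctn1, a tectonic needed for Hedgehog responses in the neural tube, had 119 and 144, and Tctn3 had 124 and 147.

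The dynein heavy chain genes were spread widely. Dnah6 had values of 101 and 138 and Dnah9, an outer arm heavy chain, had 95 and 139. Dnah7a, an inner arm heavy chain, had 81 and 125, Dnah7b had 71 and 118 and Dnah7c had 33 and 114. These 3 genes are close copies, so reads can be split or misplaced among them and their values are uncertain. Dnah11, an outer arm heavy chain of the node and airway, had 57 and 118. Lower values were found at Dnah10, of the inner arm, with 24 and 76, and at Dnah5, an outer arm chain whose loss causes primary ciliary dyskinesia in mouse and human, with 20 and 70.

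At 4 dynein genes the strongest promoter peak was not at the 5′ end. The shared peak of Dnah1 lay in an intron 55206 bp into the gene, with 50 and 103, while the 5′ end had 16 and 75. That of Dnah2 lay 5320 bp in, with 37 and 83, against 14 and 56 at the 5′ end. Dnah8 and Dnah14 had no peak at the 5′ end in either replicate. Dnah8 has 20 annotated starts, and its shared peak lay at an internal start with 12 and 45, while the strongest peaks, 14 and 65, did not overlap. Dnah14 had 15 and 43 at internal starts. With the 5′ end alone, 10 of 15 Dnah genes had a shared peak (66.7%, interval 38.4 to 88.2%) and 14 of 14 Ift genes, against 64.3% of all genes. The Dnah medians then were 20 and 75, the Ift medians 115 and 143.5 and those of all genes 48 and 113.

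**Figure D2:**
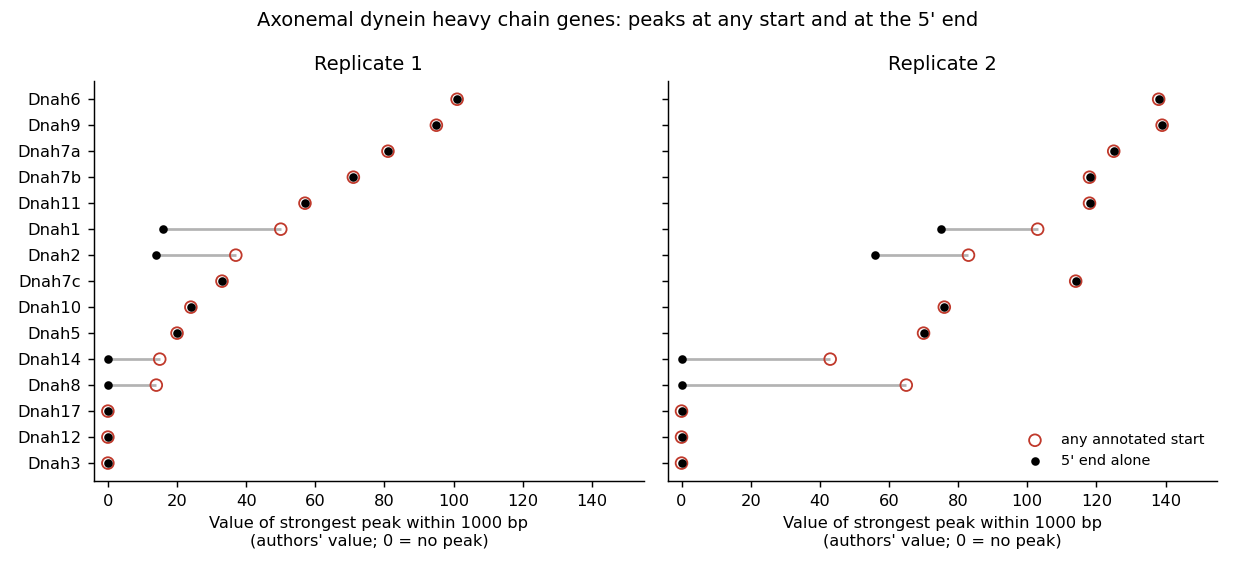
Value of the strongest peak (horizontal axis, authors' value, 0 where no peak was found) within 1000 bp of any annotated start (open circles) and of the 5′ end alone (black dots) for the 15 Dnah genes, in replicate 1 (left) and replicate 2 (right). Dnah1, Dnah2, Dnah8 and Dnah14 differ between the 2 measures, and Dnah8 and Dnah14 are at 0 at the 5′ end.

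Dnah3, Dnah12 and Dnah17 had no promoter peak in either replicate, as did 21.6% of all protein-coding genes. The deposited hotspots, broader regions of enriched cutting called at q = 0.05, held none there either. Within 2000 bp, Dnah3 had overlapping peaks with values of 21 and 53, Dnah17 had 14 and 41, and Dnah12 had a peak of 28 in replicate 2 alone. The lack of a called peak does not show that the promoter was closed in every cell.

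The radial spoke genes lay between the IFT genes and the dyneins, with medians of 70 and 121.5 over 8 genes. Rsph1, a component of the spoke head, had 87 and 141 and Rsph14 had 90 and 138. Rsph4a and Rsph9, both spoke head genes mutated in human ciliary dyskinesia, had 61 and 122 and 68 and 123. Rsph10b was lowest with 17 and 67, and Rsph6a, a testis paralogue of Rsph4a, had 45 and 102. Rsph3a and Rsph3b, near-identical copies whose reads may be split, had 92 and 121 and 72 and 116.

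Promoters rich in CpG are open in most tissues, and the CpG count differed between the classes. Within 1000 bp either side of the 5′ end, the median count of CpG dinucleotides was 76 for Ift genes and 39 for Dnah genes, against 61 over all genes. It was 52.5 for Rsph, 63 for Bbs, 121.5 for Rfx genes and 112 for Foxj1. The 120 bases before the 5′ end are printed for the highest-ranked IFT gene, a weak dynein gene and a dynein gene without a peak, chosen for their values, with each CpG in capitals, in the GRCm38.p6 sequence on the gene's strand.
Ift27, chr15:78174108-78174227, minus strand: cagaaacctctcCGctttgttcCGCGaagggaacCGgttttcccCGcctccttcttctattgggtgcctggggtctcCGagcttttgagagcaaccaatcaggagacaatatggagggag
Dnah5, chr15:28203632-28203751, plus strand: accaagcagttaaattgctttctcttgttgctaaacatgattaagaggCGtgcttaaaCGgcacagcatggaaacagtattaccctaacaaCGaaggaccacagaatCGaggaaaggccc
Dnah12, chr14:26693154-26693273, plus strand: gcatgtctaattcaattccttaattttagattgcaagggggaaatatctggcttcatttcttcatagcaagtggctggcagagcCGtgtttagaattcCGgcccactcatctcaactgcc

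These stretches hold 6 CpG in Ift27, 4 in Dnah5 and 2 in Dnah12, beside peak values of 130 and 148, 20 and 70, and none. The Ift27 peak, chr15:78174196-78174345, covers only a part of the stretch printed for that gene. Genes of equal CpG count could differ in value. Ift74 and Dnah10, a pair chosen after their values were seen, both had 54 CpG in the wider window. Their values were 115 and 148 and 24 and 76. Over all genes with 40 to 59 CpG the middle quartiles ran from 18 to 93 and from 70 to 137. Dnah3, Dnah12 and Dnah17 had 19, 16 and 25 CpG in the wider window. All protein-coding genes were split into 3 groups of nearly equal size by this count. The median strongest value over all genes was 0 and 0 in the lowest group, 77 and 130 in the middle group and 102 and 141 in the highest. In the lowest group, with at most 32 CpG, 23.1% of all genes had a shared promoter peak, as did 1 of 4 Dnah genes and 3 of 3 Rsph genes. Of the low-CpG Rsph genes, Rsph14 with 28 CpG had 90 and 138 and Rsph4a with 25 CpG had 61 and 122, while Rsph10b with 29 CpG had 17 and 67.

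In the middle group, with 33 to 85 CpG, 86% of all genes had a shared promoter peak, and so had 10 of 10 Ift genes and 11 of 11 Dnah genes. The Ift medians in this group were 111 and 143.5 and the Dnah medians 50 and 114, against 77 and 130 for all its genes. Its genes were not matched for CpG, since the Ift genes had 54 to 83 and the Dnah genes 33 to 73. Over all genes, the medians were 58 and 119 at 40 to 59 CpG and 90 and 137 at 60 to 79. The classes were not compared at equal CpG. Across the middle group both classes had a peak at every gene. The Ift values (79 to 130 and 124 to 148) lay mostly above the Dnah values (14 to 101 and 43 to 139). The ranges overlapped. At the 5′ end alone, where the CpG was counted, 10 of 10 Ift and 9 of 11 Dnah genes of the middle group had a shared peak. So had 83% of all its genes. The medians there were 111 and 143.5 for Ift, 33 and 114 for Dnah and 72 and 128 for all genes of the group. The RFX motif GTTGCC was in 5 of these 10 Ift promoters and 2 of these 11 Dnah promoters, against 13.5% of the group.

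**Figure D3:**
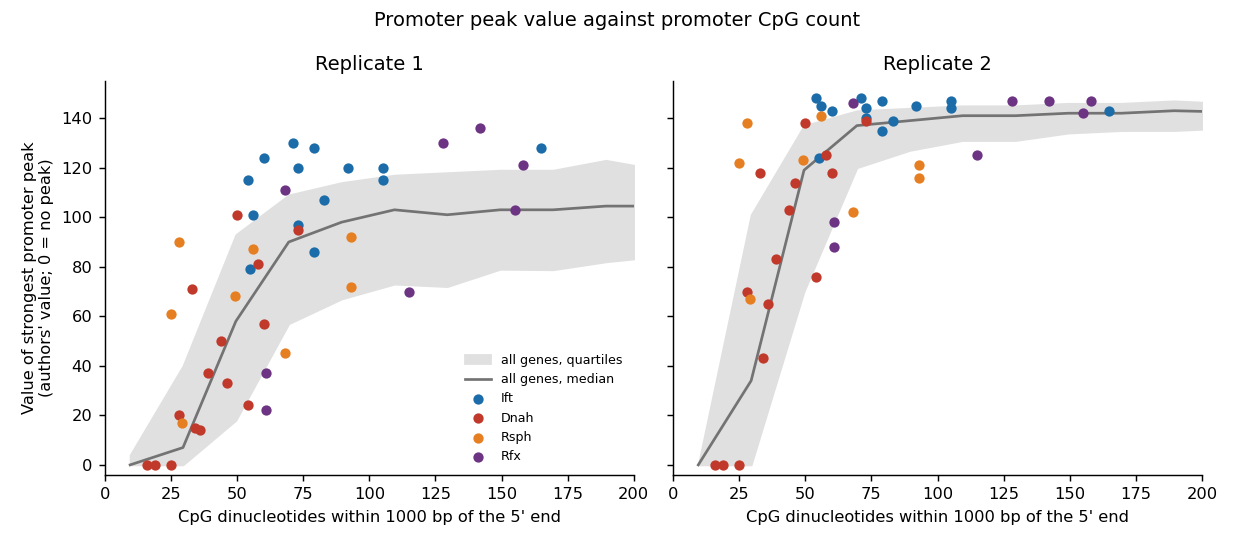
Authors' value of the strongest promoter peak at any start (vertical axis, 0 where no peak was found) against the number of CpG dinucleotides within 1000 bp of the 5′ end (horizontal axis), in replicate 1 (left) and replicate 2 (right). Points are Ift, Dnah, Rsph and Rfx genes, the grey line is the median of all protein-coding genes in steps of 20 CpG and the grey band spans their middle quartiles; the 3 Dnah genes at 0 have 16, 19 and 25 CpG.

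The RFX genes fell into different levels. Rfx1 had 136 and 147, Rfx2 130 and 147 and Rfx3 121 and 147; Rfx2 and Rfx3 are regulators of ciliogenesis in the mouse. Rfx5, which acts with Rfxank and Rfxap on MHC class II promoters, had 111 and 146, and Rfx7 had 103 and 142. Rfx4, needed for dorsal patterning of the neural tube, had 70 and 125, with several promoter peaks rather than a single strong one. At its 5′ end the value was 70 and 124, and 1012 bp upstream a peak had 67 and 125. Rfx6, an endocrine pancreas factor, had 37 and 98 and Rfx8 had 22 and 88. Foxj1 had 105 and 142 at chr11:116335376-116335525, centred 52 bp upstream of its start, which placed it at percentile 69 and 68.7 of the genes with a promoter peak. Its single annotated start had a value close to that of Rfx7 in both replicates.

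Peaks away from promoters were counted from 50 kb before each gene to 50 kb after it. They were shared peaks described by the replicate 2 interval, centred over 1000 bp from any protein-coding transcript start. Since promoter peaks were taken at starts of any transcript type, 15 of these distal peaks, at 10 genes, were also promoter peaks, among them the strongest shared promoter peaks of Dnah1, Dnah8, Dnah14 and Rfx4. Nearness to a gene does not show that a peak acts on it. The median count was 8.5 for Ift genes and 11 for Dnah genes, against 7 over all protein-coding genes. From replicate 2 alone the medians were 15, 20 and 11 in the same order, and from replicate 1 alone they were 21.5, 61 and 22, where the Ift median was below that of all genes. Median gene length was 65.1 kb for Ift genes and 239.2 kb for Dnah genes, against 17.4 kb for all genes. Per 100 kb of window the medians were 5.83 for Ift and 4.75 for Dnah genes, against 5.02 for all genes, the opposite order of the classes. In the gene body alone, the medians per 100 kb were 1.97 for Ift and 3.26 for Dnah genes, against 0.803 for all genes. Here Dnah genes stood above Ift genes again. The whole gene length was used, including the stretch near starts where no peak was counted, which lowers this measure most in short genes. The 658 distinct distal peaks of the members had median values of 19 and 62, near the 18 and 60 of all 140451 shared distal peaks.

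**Figure D4:**
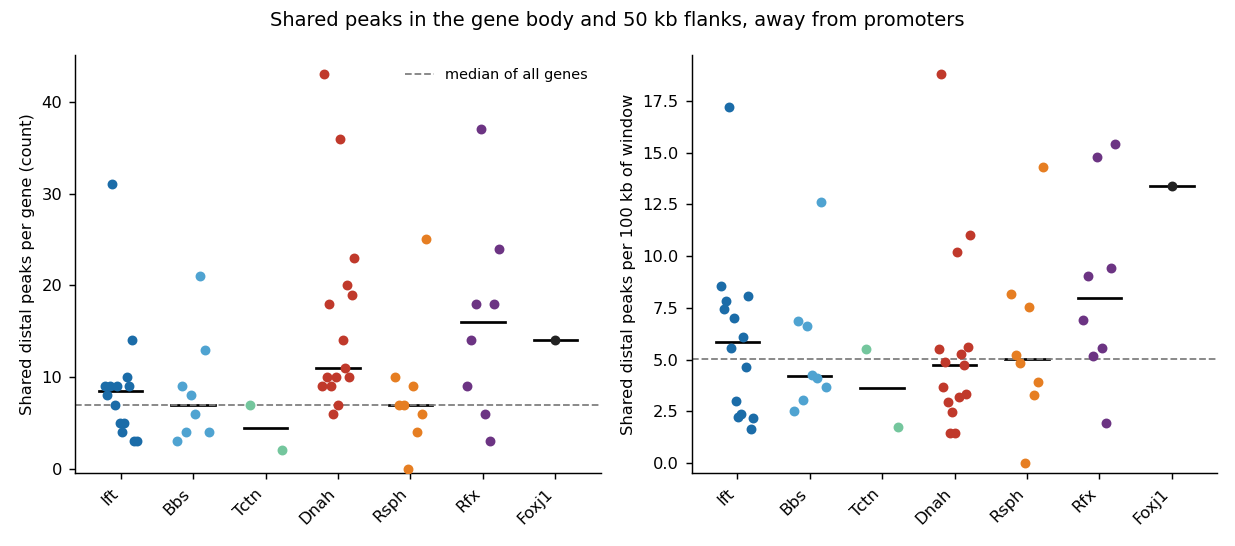
Number of shared distal peaks per gene (left) and the same per 100 kb of gene body and flanks (right), by class. Points are genes, black lines are class medians and the dashed line is the median of all protein-coding genes; the Ift median is 8.5 against 11 for Dnah genes by count, and 5.83 against 4.75 per 100 kb.

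The members with most distal peaks were Dnah2, Rfx4, Dnah8, Ift43 and Rsph14. Dnah2 had 43, of which 12 were in its body, and its strongest lay beside other genes. The highest in replicate 2, with 118 and 147, was 1106 bp from a start of Trp53, and the next, with 119 and 146, lay 5336 bp from a start of Kdm6b. Dnah8 had 36, of which 28 were in its body. The highest of those in replicate 2 had 57 and 117, in an intron 185.1 kb from the 5′ end, and the highest in replicate 1 had 62 and 113, in an exon at 33.9 kb. Ift43 had 31, with 10 in its body, and its strongest had 60 and 115. Rsph14 had 25, with 8 in its body, and its strongest had 72 and 122 at 1042 bp from a start of Bcr. Rsph4a had 0.

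The RFX genes had a median of 16 distal peaks and 7.97 per 100 kb, against 7 and 5.02 for all genes. The median count was 39 against 22 from replicate 1 alone, and 5.5 against 1 in the gene body alone. Rfx4 had 37, of which 22 were in its body. The strongest, chr10:84852656-84852805, lay in an intron 96.7 kb from the 5′ end with values of 69 and 127, beside 70 and 125 for its strongest promoter peaks. Rfx8 had 24 distal peaks around a weak promoter of 22 and 88. Its strongest had 61 and 119 at 19.5 kb from the 5′ end and 64 and 118 at 35 kb, both in introns and both above its promoter in value.

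Rfx3 and Rfx7 had 18 distal peaks each. The strongest of Rfx3 had 53 and 100, 1310 bp from its nearest start. Of the strongest at Rfx7, the first had 93 and 136 and lay 107.9 kb from the 5′ end, nearest to a start of Nedd4, and another had 86 and 136 at 1810 bp upstream of Rfx7. Rfx2 had 14, with an intronic peak of 99 and 137 at 16.5 kb from its 5′ end. Foxj1, a gene of 4.7 kb, had 14 distal peaks, or 13.4 per 100 kb, of which 1 was in its body. The strongest had 77 and 116 in an intron of the neighbour Rnf157, 32.9 kb upstream, and the next had 59 and 116 at 16.2 kb downstream of the 5′ end. Rfx1 had 9, Rfx5 had 6 and Rfx6 had 3.

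**Figure D5:**
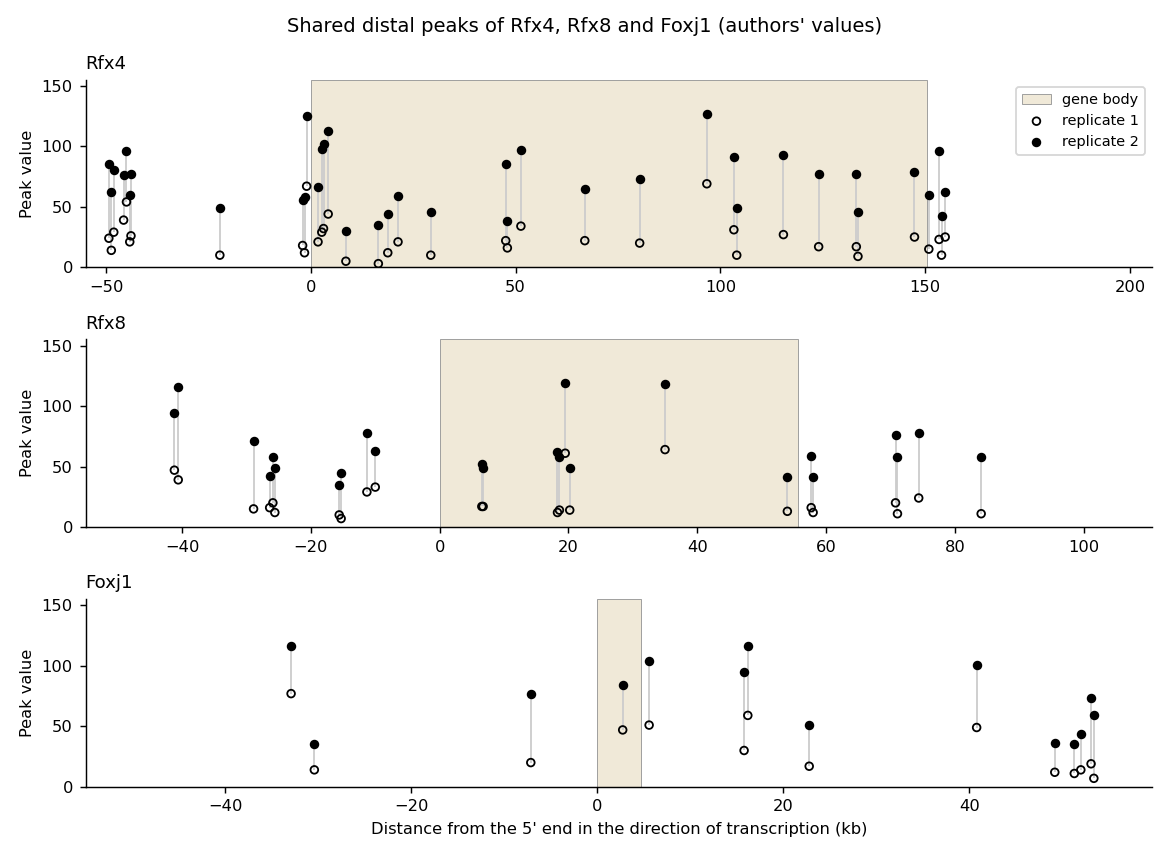
Authors' values of shared distal peaks (vertical axis) against distance from the 5′ end in the direction of transcription (horizontal axis, kb) for Rfx4, Rfx8 and Foxj1. Open circles are replicate 1, black dots replicate 2 and the shaded band the gene body; 22 of 37 peaks of Rfx4, 8 of 24 of Rfx8 and 1 of 14 of Foxj1 lie in the body.

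Over the distal peaks of all members, the X-box was in 2.74% of the 658 peaks, against 3.55% of all shared distal peaks. GTTGCC was in 7.75%, against 8.64%, and the forkhead motif in 1.67%, against 2.03%. By class, the share with an X-box was 3.17% for Ift and 1.64% for Dnah genes, and was highest for Rfx genes with 4.65% (6 peaks) and Rsph genes with 4.41% (3 peaks). GTTGCC was in 9.52% of the distal peaks of Ift, 6.97% of those of Dnah and 10.3% of those of Rsph genes.

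Cilium genes with other names, RFX partners and regulators of multiciliated cells were taken from lists by role. Each of these 74 genes had a shared promoter peak at some start, against 68.9% of all protein-coding genes. The 18 other IFT genes and their motors had medians of 106 and 141, led by Wdr19 of IFT-A with 127 and 148 and Kifap3, the kinesin-2 accessory subunit, with 127 and 144. The 7 other genes of the BBSome and its partners had 126 and 145. They were led by Bbip1 with 136 and 150 and the chaperonin-like Mkks with 129 and 146. The 13 transition zone genes had 109 and 139, led by Rpgrip1l with 127 and 147 and Nphp4 with 120 and 147. Median CpG counts of these lists were 71, 78 and 70 in the same order.

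The Dnah heavy chains had medians of 33 and 83, against 81.5 and 134.5 for 18 genes of dynein intermediate and light chains, docking and assembly. Dnaic1, an outer arm intermediate chain, had 128 and 148 and Ccdc151, a docking factor, had 132 and 146, while Armc4 had 10 and 53. The 11 genes of the central apparatus and other axonemal parts had 48 and 119, with Hydin of the central pair at 84 and 132 and the tektin Tekt1 at 88 and 128. Over both of these lists of motile cilium genes, values ran from 10 to 132 in replicate 1 and from 53 to 148 in replicate 2. The median CpG count was 55 for the list of 18 and 47 for the list of 11, against 39 for Dnah genes, so they were not matched for CpG.

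The 7 RFX partners and regulators of multiciliated cells had 76 and 131. Their median CpG count was 127, where all genes with 120 to 139 CpG had medians of 101 and 141. Rfxank led with 124 and 148, followed by Rfxap with 100 and 137. Of the regulators of multiciliated cells, Ccno had 97 and 136, Myb 76 and 131, Mcidas 40 and 118, Trp73 20 and 86 and Gmnc 14 and 62. The Gmnc peak was shared at an internal start and not at the 5′ end.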

How the data were processed

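DNase-seq peaks of both replicates were used as deposited, on mm10 per the labels. Aligner and peak caller: not given in the sources used here. The authors called peaks and hotspots per replicate. The deposited peak value is a score of at most 150, compared within a replicate only. In the hotspot lists the authors give a −log10 q value from q = 0.05 to a cap of 100. Both replicates were assigned from the labels.

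Genes, starts and exons came from GENCODE M21 and sequence from GRCm38.p6, with coordinates 1-based. As a check, 99.9% of 59255 start codons read ATG and 0 intervals passed a chromosome end. Duplicate symbols (27) were left out. A peak covering windows of several genes counted for each, and strongest peaks of the replicates need not overlap. Among the 658 distal peaks 9 overlapped the next in their list. Shares carry 95% Clopper-Pearson intervals. There was no test over genes, which are not replicates.

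Members, gene lists and alternatives were chosen with earlier results of these data known. Values were given for all Rfx genes and Foxj1, the 3 highest and 3 lowest Ift and Dnah genes, members without a peak, the 5 with most distal peaks, and the 2 highest of each other list; further members were named for their role. The steps were tested on simulated data, where all planted peaks and motifs were found. Tools were pandas 2.3.3, numpy 2.4.6, scipy 1.17.1, pysam 0.24.0 and matplotlib 3.10.9 under Python 3.11.15.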

Additional observations from a re-analysis of the deposited data

How the results depend on the processing

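No paired analysis was possible because the samples formed 1 group. Under the alternatives tried for the count of genes with a shared promoter peak (overlap, value, window, starts, neighbouring genes, hotspots and each replicate alone), the count ran from 12 to 14 of 14 for Ift genes and from 9 to 14 of 15 for Dnah genes, against 60 to 75.8% of all genes. It was 9 of 15 where all genes had 62.3%, and 14 of 15 where they had 71.2%. Both minima came from settings chosen after seeing the data, with the 5′ end alone: Ift without peaks nearer to another gene's start (12), Dnah with the stronger part of each replicate's peaks (9). Dnah8 and Dnah14 lost their shared peak at the 5′ end, among the upper part of peaks by value and at protein-coding transcripts' starts, Dnah2 lost it with 500 bp, and Dnah3 and Dnah17 gained it with 2000 bp. The median of shared distal peaks changed most. For Ift genes (8.5) it was 4 with flanks of 20 kb, 1 in the gene body alone and 14.5 with all shared peaks counted. For Dnah genes (11) it was 7 in the gene body alone. With a replicate left out it was 15 to 21.5 for Ift and 20 to 61 for Dnah genes, against 11 to 22 for all genes. Depth is unknown, replicate 2 values crowd near 150, and a promoter without a called peak may be open in few cells.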
